A study of Mus musculus with 217 samples.

Results

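The genes described here encode the proteins of the cytosolic ribosome. They were taken as the protein-coding genes whose symbol is Rpl or Rps followed by a number, together with Rplp0, Rplp1, Rplp2 and Rpsa, leaving out the Rps6k kinase genes, Rps19bp1 and pseudogene symbols. The annotation held 85 such genes, and 81 of them (48 Rpl genes, 33 Rps genes) were measured in all 3 tables, which list 11867 genes in the nucleus accumbens (NAc), 12101 in the dorsomedial striatum (DMS) and 11394 in the dorsolateral striatum (DLS). Rpl10l, Rpl24, Rpl39l and Rpl3l were not analysed here. The 81 genes lie on 19 chromosomes, and they include the paralogs Rpl22l1, Rpl36al, Rpl7l1, Rps27l and Rps27rt.

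Bulk RNA was sequenced from 1 mm punches of these 3 striatal subregions in wild-type C57BL/6J mice of both sexes, about 10 weeks old and untreated, kept in 12 h of light and 12 h of dark. Tissue was taken 2, 6, 10, 14, 18 and 22 h into the light-dark cycle, counted from lights on and written as ZT2 to ZT22 (Zeitgeber time). The 217 libraries came from 93 animals and comprised 77 of NAc (37 female, 40 male), 70 of DMS (34 and 36) and 70 of DLS (35 and 35), with 5 to 7 libraries per sex, time and region. A punch holds every cell type of the tissue, so fewer cells of a type and less RNA per cell cannot be told apart in these values.

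The eukaryotic ribosome joins a small subunit, which reads the mRNA, to a large subunit, which forms the peptide bond. Its proteins are made in matched amounts, and their mRNAs are known for a terminal oligopyrimidine (TOP) tract, a C followed by further C and U at the very start of the transcript, through which mTOR signalling adjusts their translation as a group. In the brain these mRNAs are abundant in neurons and glia, and some are also carried into dendrites and axons.

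Promoter windows from RefSeq (GRCm38.p6) were available for 61 of the 81 genes. A run of at least 8 C or T on the sense strand, between 30 bases before and 20 bases after an annotated start, was found in 31 of the 61 (50.8%) and in 22.9% of 27025 genes of the same table. On the opposite strand the same search found 9.84% of the ribosomal protein genes and 24.6% of all genes. The motif CTTTCC, which consists of C and T and can lie within such a run, was on the sense strand in 11 genes (18.0%, against 2.88% of all genes) and on the opposite strand in 1 (1.64%, against 2.47%). The following windows belong to genes on which the results below turn, each written 5′ to 3′ on the sense strand of the gene, with the longest run of 8 or more C or T in capitals.
Rps27 (chr3:90213629-90213678, minus strand): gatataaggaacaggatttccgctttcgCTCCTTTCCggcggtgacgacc
Rpl22l1 (chr3:28805478-28805527, plus strand): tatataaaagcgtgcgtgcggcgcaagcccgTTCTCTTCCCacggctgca
Rps15a (chr7:118116128-118116177, minus strand): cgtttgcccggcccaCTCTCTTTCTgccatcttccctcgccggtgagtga
Rplp2 (chr7:141447621-141447670, plus strand): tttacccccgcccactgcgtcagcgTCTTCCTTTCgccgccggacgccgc
Rpl28 (chr7:4792935-4792984, plus strand): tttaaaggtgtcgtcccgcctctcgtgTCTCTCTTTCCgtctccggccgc
Rpl4 (chr9:64173357-64173406, plus strand): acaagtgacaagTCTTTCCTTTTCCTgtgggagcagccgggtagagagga
Rpl7l1 (chr17:46782637-46782686, minus strand): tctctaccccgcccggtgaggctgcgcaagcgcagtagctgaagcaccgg
Of these 7, only the window of Rpl7l1 held no run of 8. A match is a description of the letters in the window and was not tied to any measured start of transcription.

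Depth could be recovered in DMS and DLS, where reads summed to between 35711640 and 57468484 and between 29719087 and 56799764 per library. The ribosomal protein genes took 293280 to 535029 reads of a DMS library and 51459 to 491411 of a DLS library, the lowest being the ZT6 male 13 of DLS. Read depth could not be recovered for NAc. As a share of counts outside 4 ribosomal RNA genes, their median was 1.85% in NAc libraries (range 1.36 to 2.89%), 1.24% for DMS (range 0.979 to 2.05%) and 1.47% for DLS (range 0.930 to 1.77%). The 2 mitochondrial ribosomal RNAs, mt-Rnr1 and mt-Rnr2, varied widely between libraries and are used below as a measure of the library. They took 22.7 to 50.6% of normalised counts in NAc, 19.02 to 52.6% in DMS and 13.2 to 53.03% in DLS. The lowest DLS share, 13.2%, belonged to the ZT6 male 13. In that library the ribosomal protein genes took 0.173% of all counts. Outside the 4 ribosomal RNA genes they took at least 0.939% in each DLS library of ZT6. Most counts of the ZT6 male 13 thus fell in those 4 genes, mainly in the rRNA-like ones other than mt-Rnr1 and mt-Rnr2. In DMS the libraries fell into 37 of low share (19.02 to 29.9%) and 33 of high share (35.3 to 52.6%), with none between. All 26 DMS libraries of animals numbered 31 and higher had a high share, as did 7 of the 44 of lower numbers, all 7 male.

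Compared per kilobase of exon, most of these genes were among the most abundant mRNAs of the tissue. In DMS 64 of 81 lay above the 90th percentile of all genes, in NAc 74 and in DLS 67. Rplp1, an acidic protein of the stalk that recruits elongation factors, was the highest in all 3 regions, with 46930 ± 14216 normalised counts per kb in NAc (SD, n = 77), 32608 ± 11102 in DMS (n = 70) and 29819 ± 4532 in DLS (n = 70). Rps23, a small subunit protein at the decoding centre, was second in all 3, with 14109 ± 4313, 9637 ± 3118 and 8367 ± 1305. Next came Rpl26 in NAc (10688 ± 3035) and Rpl36 in DMS (8491 ± 2545) and DLS (7542 ± 1124), and in each region that next gene lay within 1 SD of Rps23.

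The lowest were the paralogs Rps27l, a relative of Rps27 known as a p53 target, and Rpl7l1, a relative of Rpl7 found in precursors of the large subunit. Rps27l had 145 ± 59.7, 140 ± 50.6 and 117 ± 30.1 normalised counts per kb in NAc, DMS and DLS, and Rpl7l1 246 ± 37.8, 253 ± 23.6 and 196 ± 22.3. Rps15a came next with 480 ± 130, 377 ± 114 and 325 ± 48.8, on the longest exon model of the set (6270 bp). Lengths are unions of all annotated exons, from 374 bp (Rps27rt) to 6270 bp with a median of 1781 bp, so retained introns in the annotation lower a value per kb. Ribosomal protein genes also have many processed pseudogenes (Rpl31 and Rps12 have 24 named ones each, Rpl21 has 15), and how reads were shared with them is not given in the sources used here.

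Other members with roles outside the core of the ribosome ranged between these ends. In DMS Rpsa, also known as a laminin receptor, had 5407 ± 1225 normalised counts per kb, and Rps6, the phosphorylated target of S6 kinase, had 3937 ± 928. Rplp0, the base of the stalk, had 3406 ± 833, and Rplp2 had 3333 ± 987. Rps29 had 6562 ± 1942, Rpl3, which lies at the peptidyl transferase centre, 4674 ± 1049, and Rps27a, made as a fusion with ubiquitin, 2182 ± 829.1.

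Levels of paralogs and their partners are given as a description, and their differences were not tested. In DMS Rpl22 had 1238 ± 313 normalised counts per kb and Rpl22l1 456 ± 169, Rps27 had 1945 ± 816 and Rps27rt 1289 ± 552, and Rpl36a had 1570 ± 466.5 and Rpl36al 787 ± 205. Of the X-linked members, Rps4x had 2470 ± 527, Rpl10 1934 ± 474, Rpl36a the value just given and Rpl39 740 ± 288. The order of the 81 genes by level was nearly the same in all 3 regions (Spearman's rho across genes 0.995 for NAc and DMS, 0.996 for NAc and DLS and 0.997 for DMS and DLS, as a description over genes that share libraries).

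The genes moved together from library to library, and they rose with the mitochondrial rRNA share of the library. The first principal component of the 81 genes held 88.7% of their variance in NAc, 94.2% in DMS and 77.2% in DLS, against 23.3, 45.2 and 15.5% over all genes. With the share removed by regression it still held 71.6, 55.7 and 71.7% (all genes 10.4, 16.5 and 13%). The mean of the 81 log2 values ran from 11.48 to 12.998 in NAc, from 11.32 to 12.65 in DMS and from 10.94 to 12.00 in DLS.

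**Figure D1:**
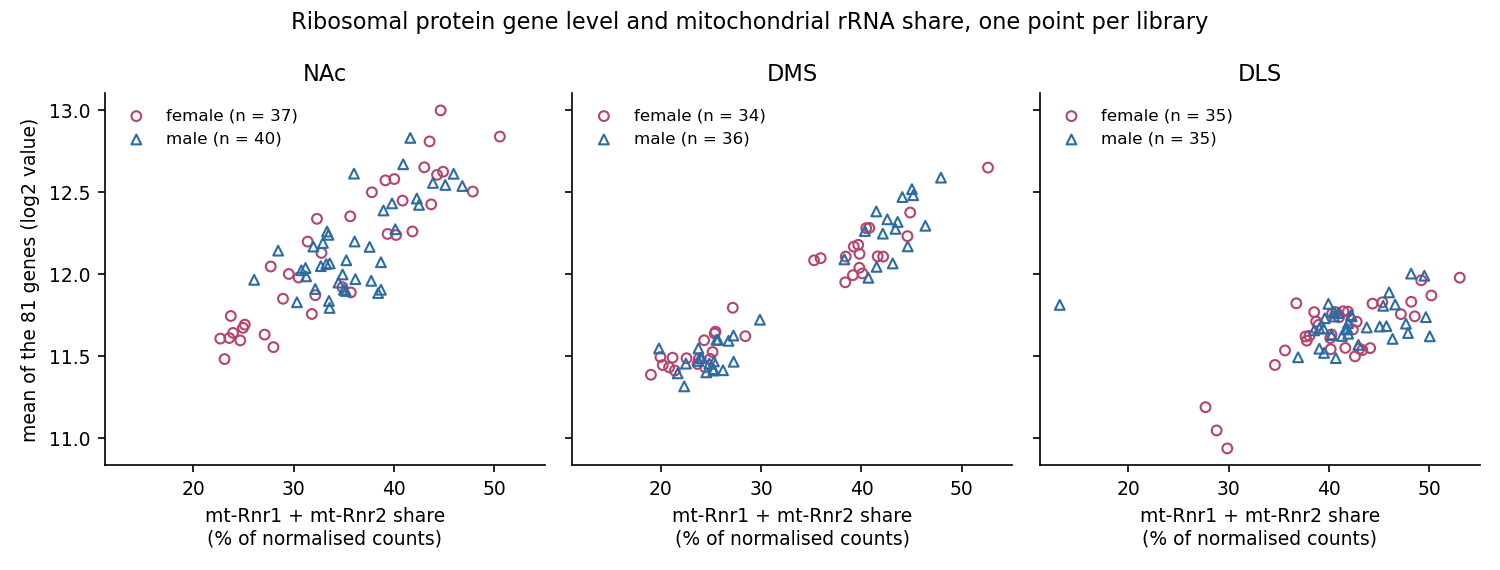
Mean log2 value of the 81 genes (vertical axis) against the share of normalised counts in mt-Rnr1 and mt-Rnr2 (horizontal axis, %), 1 point per library, circles female and triangles male, for NAc, DMS and DLS. The level rises with the share in NAc and across both groups of DMS libraries, while in DLS 3 females lie low at shares of 27.7 to 29.9% and the ZT6 male 13 stands alone at 13.2%.

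In DMS 79 of 81 genes rose with the share and none fell, in a fit with the sex and a 24 h rhythm (limma, Benjamini-Hochberg adjusted p of less than 0.05), where 78.7% of all genes were called and 39.4% of all genes rose. The median slope was 0.43 (log2 per 10 percentage points of share), a 1.35-fold higher value, against 0.00 over all genes, and 2.14% of all genes had a slope above that median. In NAc 80 of 81 rose, where 63.3% of all genes were called and 31.9% rose, with a median slope of 0.47 against 0.00. In DLS 76 of 81 rose, where 42% were called and 21.3% rose, with a median of 0.15 against 0.00. Without the ZT6 male 13 of DLS the median there was 0.27, 77 genes rose and 1 fell, where 53.5% of all genes were called and 26.6% rose. With the share taken over counts outside the rRNA-like genes, which hold most counts of that library, the DLS median was 0.26. In that fit 77 rose (52.6% of all genes called). Without the ZT22 females 2, 3 and 4 of DLS only 23 rose (25.1% of all genes called, median 0.06), and without those 4 libraries together 63 rose and 1 fell (42.5% called, median 0.17).

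The level and the share come from the same counts, so they are not independent, and the slope depends on the scaling. With each library scaled to an equal sum of all listed counts, the median slope over all genes moved to -0.30 in DMS and -0.31 in NAc, and that of the ribosomal protein genes to 0.13 and 0.16. Under that scaling 62 of the 81 rose and 9 fell in DMS (93.7% of all genes called), and 66 rose and 5 fell in NAc (84.7% called). In DLS the medians moved to 0.11 over all genes and 0.25 over these genes, and 77 rose (23.1% of all genes called).

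Values by gene show how far the 2 groups of DMS libraries stood apart. Rps27, a small subunit protein with a zinc finger, had log2 values from 9.99 to 10.87 (median 10.37) in the 37 libraries of low share and from 10.99 to 12.10 (median 11.42) in the 33 of high share. The ranges did not overlap, and its slope of 0.60 ± 0.02 (SE; adjusted p 3.1e-35, limma) was the highest in DMS. Rps27rt, a retrogene of Rps27, ran from 7.74 to 8.77 (median 8.31) and from 8.80 to 10.02 (median 9.33), again without overlap, with a slope of 0.60 ± 0.03 (adjusted p 2.4e-30, limma). Reads of these near-identical genes may have been exchanged. Rpl39, a small protein that lines the exit tunnel of the large subunit, ran from 8.94 to 10.08 (median 9.51) and from 10.03 to 10.997 (median 10.43), where the ranges overlapped at their edges, with a slope of 0.59 ± 0.02 (adjusted p 1.78e-35, limma).

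At the other end stood genes of the large subunit only. No member had a negative slope in DMS, so the 3 lowest are given. Rpl7l1 ran from 9.49 to 10.096 (median 9.77) at low share and from 9.42 to 10.05 (median 9.81) at high share, with a slope of 0.02 ± 0.02 (adjusted p 0.313, limma). Rpl29, a heparin-binding protein of the large subunit, ran from 11.09 to 11.64 (median 11.37) and from 10.98 to 11.79 (median 11.50), with a slope of 0.03 ± 0.02 (adjusted p 0.205, limma). The ranges of both genes overlapped almost entirely between the groups. Rpl4, whose loop reaches into the exit tunnel, ran from 13.17 to 13.51 (median 13.31) and from 13.30 to 13.69 (median 13.47), with a slope of 0.09 ± 0.01 (adjusted p 6.99e-10, limma). Under the equal-sum scaling Rpl4 fell with the share, by 0.21 in DMS and by 0.16 in NAc.

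Over the whole set, 55 of the 81 genes had every high-share DMS library above every low-share one, where 3.01% of all genes did, and the median difference of the group means was 0.75 (log2, 1.69-fold), from 0.04 for Rpl7l1 to 1.07 for Rps27rt. The slope also held within the high-share libraries of DMS, where 77 of 81 rose (34% of all genes called and 16.3% higher, median slope 0.40). Within the low-share libraries, which span fewer points of share, 8 rose (1.36% of all genes called and 1.05% higher). The median slope there was 0.20, and 17.4% of all genes had a slope above it. Of the 81 slopes 72 were positive, but the genes moved together, so their signs are not separate observations. How many of all genes had a positive slope is not given here. Rps15a was among the 8, with slopes of 0.48 ± 0.11 at low share and 0.44 ± 0.07 at high share.

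Slopes ranked alike in the 3 regions. Spearman's rho across the 81 genes was 0.91 for NAc and DMS, 0.80 for NAc and DLS and 0.70 for DMS and DLS, a description over genes whose libraries come partly from the same animals. Rpl21, Rpl29, Rpl4, Rpl6 and Rpl7l1 were among the 6 lowest slopes in all 3 regions, and Rpl22l1, Rpl34, Rpl35a, Rpl9, Rps14 and Rps21 among the 10 highest in all 3. In NAc the highest were Rps27l (0.63 ± 0.08) and Rps27rt (0.63 ± 0.06) and the lowest Rpl7l1 (0.08 ± 0.03) and Rpl29 (0.08 ± 0.05). In DLS Rpl35a was the highest (0.28 ± 0.04), and Rpl29 (-0.03 ± 0.03), Rpl4 (-0.01 ± 0.02), Rpl28 (0.02 ± 0.03), Rpl7l1 and Rpl21 did not pass the test.

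**Figure D2:**
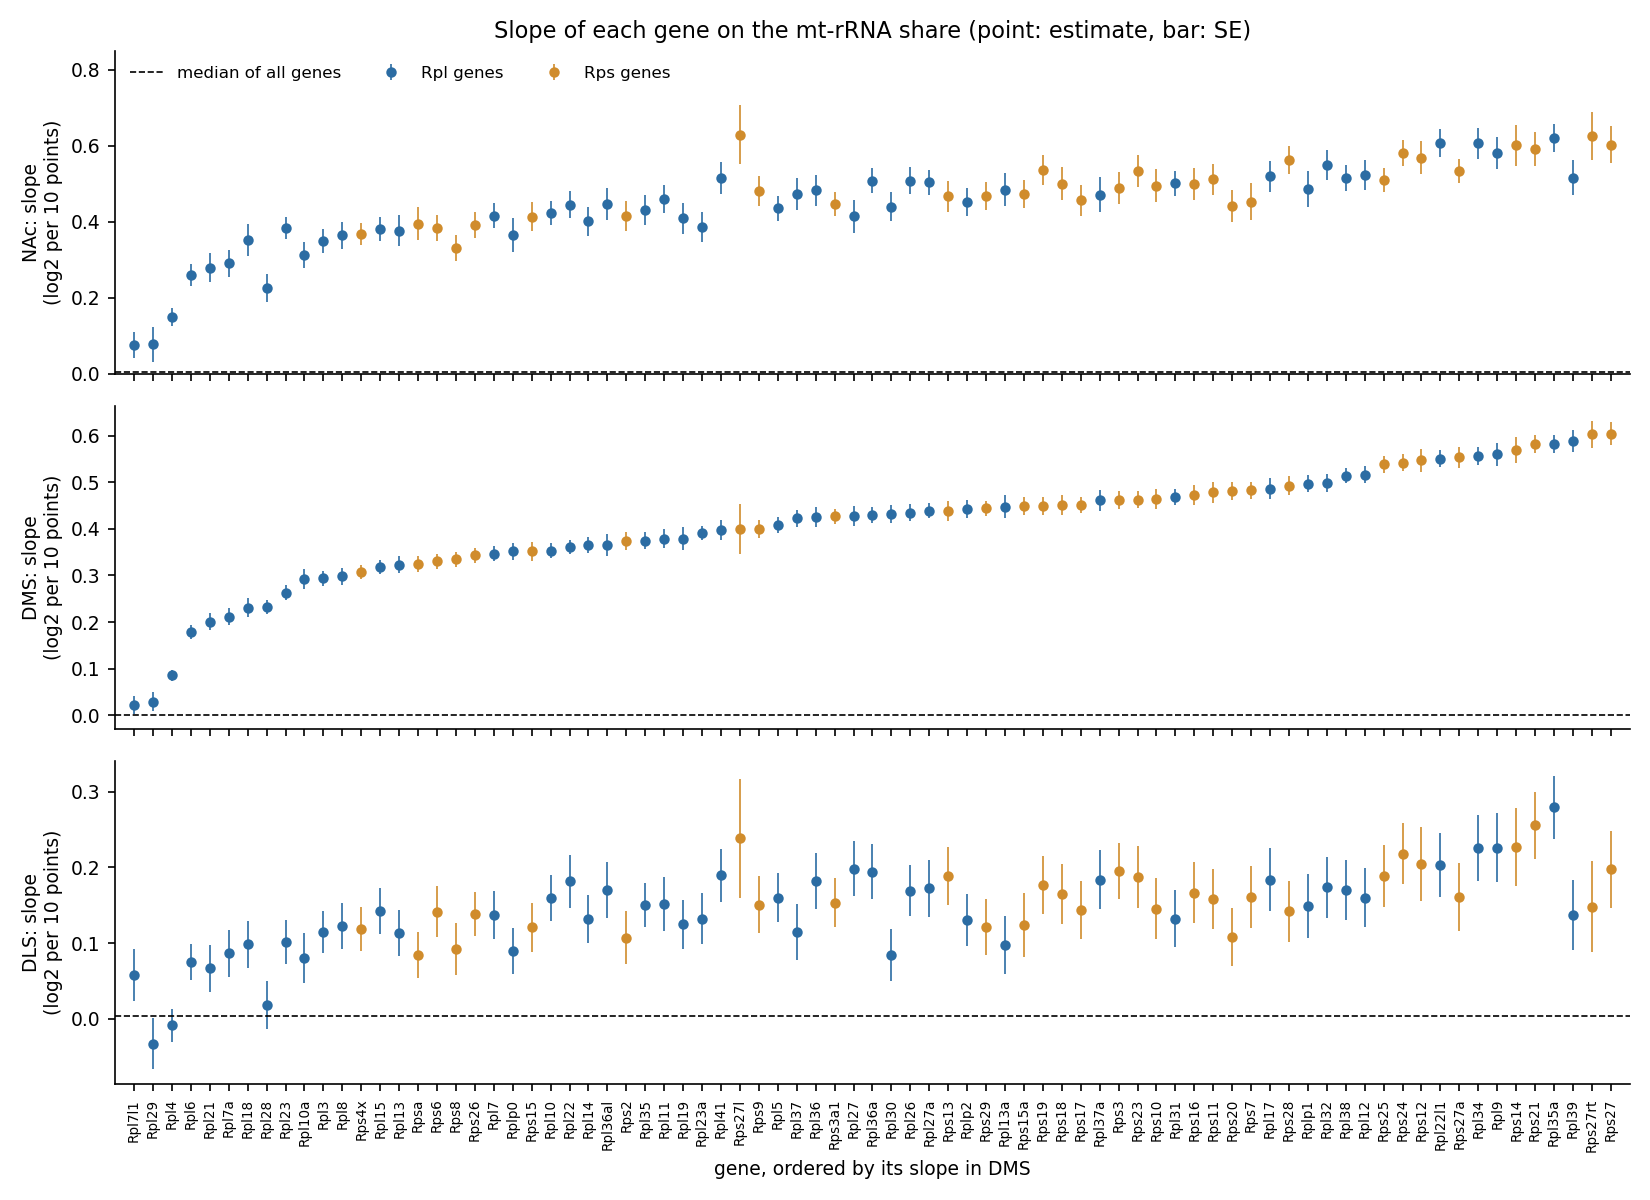
Slope of 79 of the 81 genes on the mitochondrial rRNA share (log2 per 10 percentage points, bars SE) in NAc, DMS and DLS, with genes in the order of their DMS slope, Rpl genes blue, Rps genes orange, and the median of all genes dashed. The vertical scales differ between panels. Rpl7l1, Rpl29 and Rpl4 are the 3 lowest points in NAc and DMS, and the members have medians of 0.47, 0.43 and 0.15.

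By subunit, the Rps genes had a median slope of 0.45 in DMS (0.31 to 0.60, 33 of 33 called) and the Rpl genes 0.39 (0.02 to 0.59, 46 of 48 called). The medians were 0.49 and 0.44 in NAc and 0.15 and 0.14 in DLS, so the Rps genes had the higher median in each region by at most 0.07, and the ranges overlapped. The stalk proteins Rplp0, Rplp1 and Rplp2 had DMS slopes of 0.35, 0.50 and 0.44, Rpsa 0.32 and Rps6 0.33. Rps4x, Rpl10, Rpl36a and Rpl39 of the X chromosome had 0.31, 0.35, 0.43 and 0.59. Among the paralog pairs, Rpl22 had 0.36 and Rpl22l1 0.55, Rpl36a 0.43 and Rpl36al 0.37, and Rps27 0.60 and Rps27l 0.40.

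The slope was compared with 3 features of the genes, as a description. Exon length was short in this set (median 1781 bp, against 4892 bp over all protein-coding genes of the tables). Over protein-coding genes, members included, the median DMS slope was 0.14 among exon models of up to 2024 bp, which held 47 of the members. Of the genes of that length 66.2% rose with the share. The median slope was 0.08 among exon models of up to 3139 bp, which held 67 of the members, and -0.10 among those longer than 7418 bp. Among the 81 genes slope and exon length had a Spearman's rho of -0.11 in DMS, and slope and level per kb -0.07. Genes with the C and T run in their promoter window had a median DMS slope of 0.44 (31 genes) and those without it 0.42 (30 genes). Rps27 and Rpl4, whose windows are printed above, both hold such a run and had slopes of 0.60 and 0.09.

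Markers of other cells were compared with the share in the same fits, where 78.7% of all DMS genes were called and 39.4% rose. In DMS 6 of 7 microglia markers rose with the share (median slope 0.20), and their summed level (log2) was 12.88 to 13.35 at low share and 13.24 to 13.85 at high share. All 4 red blood cell markers rose (median slope 0.76), with sums of 8.79 to 11.80 and 10.86 to 12.50. Of 10 medium spiny neuron markers 5 rose and 4 fell (sums 17.08 to 17.80 and 17.33 to 17.81), of 7 astrocyte markers 3 rose and 2 fell, of 7 oligodendrocyte markers 2 rose and 3 fell, and of 6 endothelial markers 3 rose and 1 fell. The choroid plexus marker that was measured ran from 0.00 to 16.12 and from 1.85 to 15.34, and the 2 measured cortical neuron markers from 6.78 to 12.76 and from 7.24 to 12.91, with no change called. In NAc 3 microglia markers rose and 1 fell (63.3% of all genes called and 31.9% rose). In DLS 2 rose and 2 fell (42% called and 21.3% rose). Of the 4 red blood cell markers 2 rose in NAc and 4 in DLS. In NAc 3 medium spiny neuron markers rose and 4 fell, as did 2 and 1 astrocyte, 1 and 3 oligodendrocyte and 2 and 3 endothelial markers. In DLS the counts were 1 and 5, 2 and 0, 0 and 2 and 2 and 0, in that order. The part of these markers in the level of the ribosomal protein genes was not tested.

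The daily course was then compared over the 6 times. In DMS the genes were higher from ZT10 to ZT18 than from ZT22 to ZT6, and this moved with the number of high-share libraries at each time, with 3 of 12 such libraries at ZT2 and 4 of 12 at ZT6, then 7 of 11 at both ZT10 and ZT14, 10 of 12 at ZT18 and only 2 of 12 at ZT22. The median of the library means was 11.44 at ZT2, 11.62 at ZT6, 12.10 at ZT10, 12.17 at ZT14, 12.06 at ZT18 and 11.49 at ZT22. The ranges overlapped at all 6 times, from 11.32 to 12.38 at ZT2 and from 11.46 to 12.65 at ZT14.

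**Figure D3:**
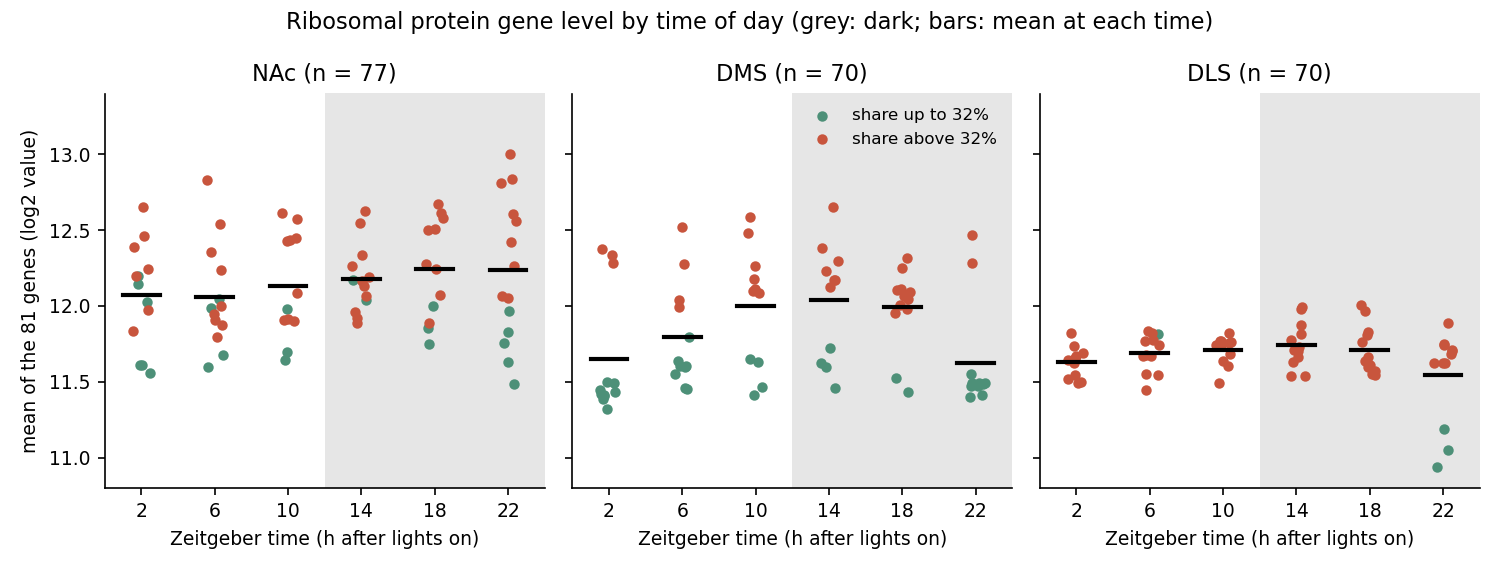
Mean log2 value of the 81 genes by Zeitgeber time in NAc, DMS and DLS, 1 point per library, red where mt-Rnr1 and mt-Rnr2 take more than 32% of normalised counts and green otherwise, with bars at the mean of each time and the dark phase in grey. In DMS the bars rise where red points are many (10 of 12 at ZT18) and fall where they are few (2 of 12 at ZT22), and in DLS 3 green points lie low at ZT22.

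In DMS 79 of 81 genes were called rhythmic by a cosine fit of 24 h (limma, adjusted p of less than 0.05), where 51.3% of all genes were called. Of these 79, 76 peaked in the dark, where 25.9% of all genes did so, with peaks from 11.3 to 13.7 h (median 13.1) and a median amplitude of 0.24 over the 81 genes (log2, 1.39-fold from trough to peak), against 0.11 over all genes. Rpl7l1 (amplitude 0.04, adjusted p 0.373) and Rps27l (0.16, adjusted p 0.228) were not called in limma. With libraries scaled to an equal sum, 55 were called (76.9% of all genes) and only 10 of them peaked in the dark.

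Rpl3 had the smallest p. Its log2 values at ZT2 were 13.37 to 14.24 (median 13.54, n = 12), at ZT6 13.50 to 14.33 (median 13.62, n = 12) and at ZT10 13.52 to 14.47 (median 14.03, n = 11). At ZT14 they were 13.71 to 14.48 (median 14.11, n = 11), at ZT18 13.56 to 14.34 (median 13.93, n = 12) and at ZT22 13.34 to 14.30 (median 13.48, n = 12). The medians were high from ZT10 to ZT18, and the ranges overlapped at all times. Its amplitude was 0.23 ± 0.05 (SE), or 1.38-fold, with a peak at 13.3 h (adjusted p 0.000302, limma). Small p values in limma also belonged to Rpl10a of the L1 stalk (1.34-fold, peak 12.5 h, adjusted p 0.00167) and Rpl35 at the tunnel exit (1.40-fold, 13 h, 0.00215). The widest cycles belonged to members of steep slope, such as Rps27rt (amplitude 0.37, 1.68-fold), Rps21 (0.36, 1.65-fold) and Rps14 (0.34, 1.61-fold).

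With the share as a covariate the fitted rhythm of DMS shrank and its phase moved. The median amplitude of the 81 genes was 0.05, against 0.07 over all genes, and 9 were called, where 28.6% of all genes were called. These were Rpl22, Rpl22l1, Rpl28, Rpl31, Rpl39, Rplp2, Rps12, Rps15a and Rps25. All 9 peaked in the light, from 3.22 to 6.76 h. An unadjusted p of less than 0.05 was reached by 26 of the 81 and by 4977 of all 12101 genes.

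**Figure D4:**
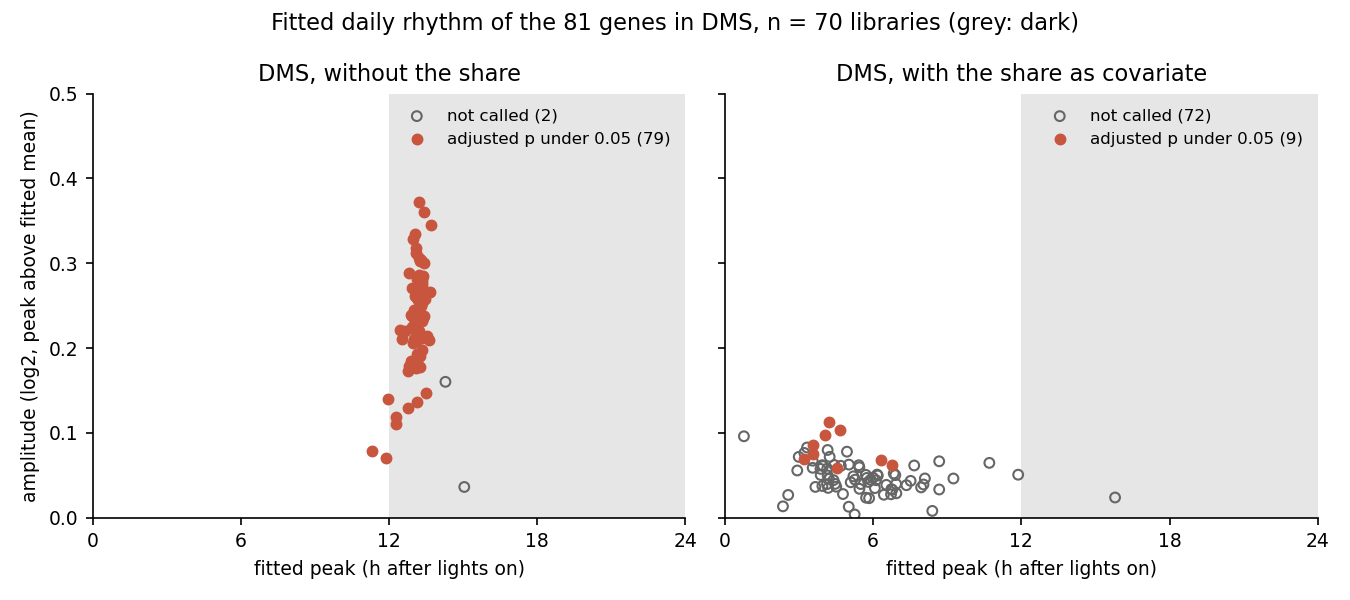
Amplitude (log2) against fitted peak time (hours after lights on, grey is the dark) of the 81 genes in DMS, without (left) and with (right) the mitochondrial rRNA share as covariate, filled where the adjusted p is under 0.05. Without the share 79 genes are called with peaks from 11.3 to 13.7 h, and with it 9 are called with peaks from 3.22 to 6.76 h.

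Rps15a had the smallest p of that fit. Its log2 values at ZT2 were 10.46 to 11.74 (median 10.77), at ZT6 10.72 to 11.89 (median 11.09) and at ZT10 10.76 to 11.89 (median 11.34). At ZT14 they were 10.61 to 11.97 (median 11.46), at ZT18 10.44 to 11.68 (median 11.30) and at ZT22 10.52 to 11.88 (median 10.74). The values alone were thus highest at ZT14, and the light-phase peak is relative to the level fitted from the share. Its amplitude with the share was 0.10 ± 0.02 (1.15-fold, peak 4.67 h, adjusted p 0.00207, limma), against 0.22 ± 0.07 with a peak at 12.4 h without it.

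Rpl39 ran from 8.99 to 10.61 (median 9.55) at ZT2 and from 9.11 to 10.997 (median 10.20) at ZT14, and had an amplitude of 0.11 ± 0.03 with the share (1.17-fold, peak 4.20 h, adjusted p 0.00708, limma). Rpl22 (1.09-fold, 6.76 h, adjusted p 0.0166) and Rplp2 (1.13-fold, 3.54 h, adjusted p 0.0176) followed in limma. In place of the share, a term for the high-share libraries also left 9 genes (25.2% of all genes called), of which Rpl22 and Rps15a were called in both fits, with peaks from 7.08 to 12.0 h. The genes called thus differed with how the share was entered.

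**Figure D5:**
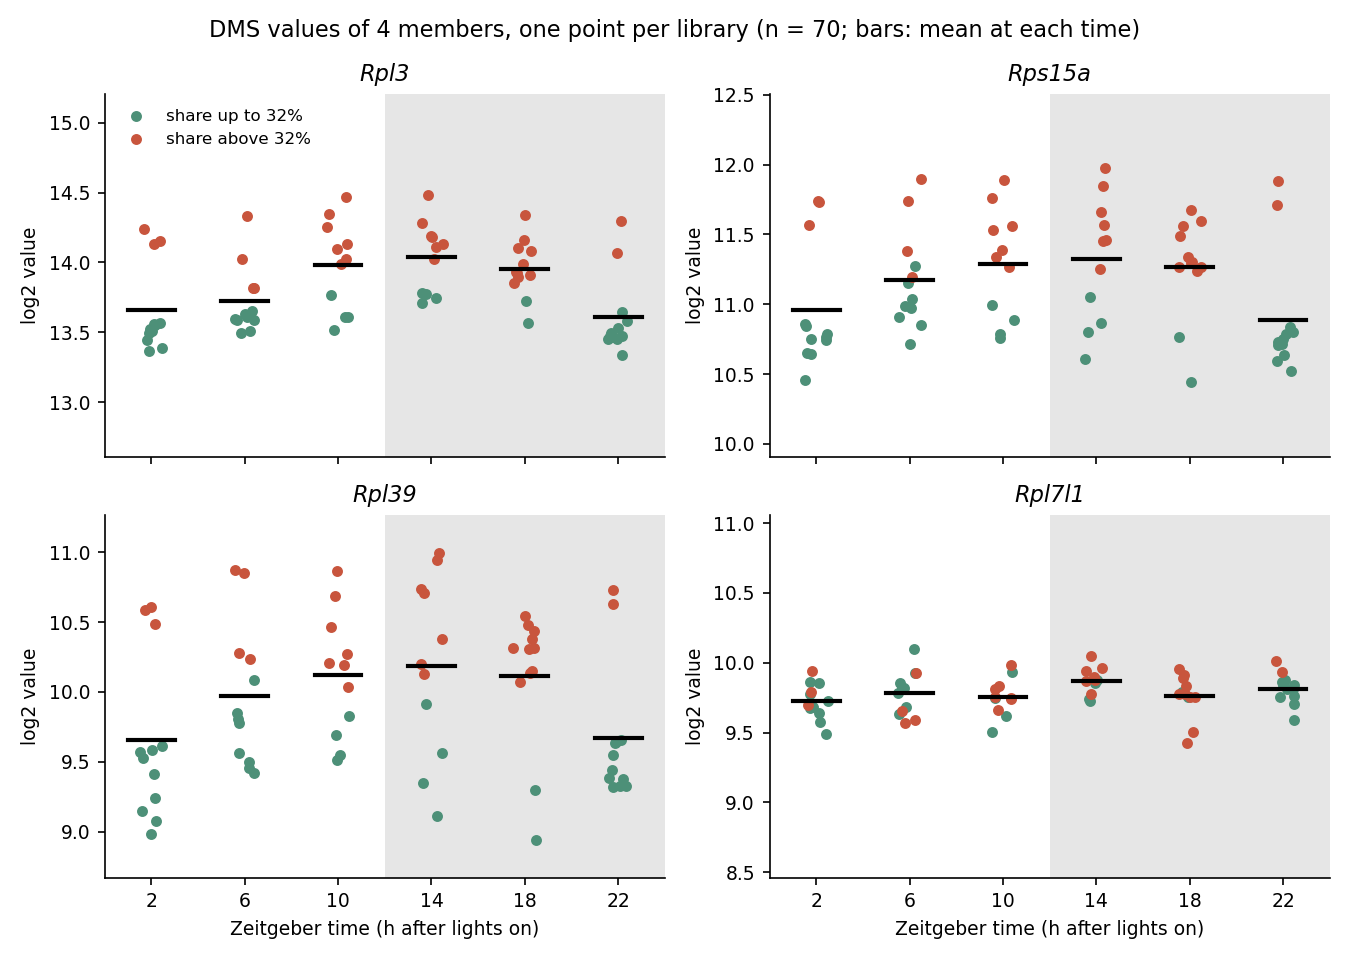
Log2 values of Rpl3, Rps15a, Rpl39 and Rpl7l1 in the 70 DMS libraries by Zeitgeber time, red where mt-Rnr1 and mt-Rnr2 take more than 32% of normalised counts, with bars at the mean of each time. Rpl3, Rps15a and Rpl39 separate largely by colour (Rpl3 medians 13.56 and 14.11), whereas in Rpl7l1 the colours mix.

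The rhythm was also fitted within each group of DMS libraries. In the 37 low-share libraries 23 genes were called (7.83% of all genes), 8 peaking during the dark (4.59% of all genes), with peaks from 8.31 to 12.9 h. Rpl3 there had an amplitude of 0.12 ± 0.02 (1.18-fold, peak 12.9 h, adjusted p 0.000478, limma), and Rpl22 0.12 ± 0.02 (1.18-fold, 10.7 h, adjusted p 0.00195, limma). In the 33 high-share libraries limma called 0 of 81 (15% of all genes). There 3 had an unadjusted p of less than 0.05, as did 3510 of all 12101 genes. Among animals numbered up to 29 limma called 50 (21.1% of all genes), and among those numbered 31 and higher 0 (10.2% of all genes). In the latter 0 had an unadjusted p of less than 0.05, against 2937 of all 12101 genes. The difference between these subsets was not tested.

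In NAc no gene was called. Limma called 0 of 81, where 2.56% of all genes were called. An unadjusted p of less than 0.05 belonged to 4 of the 81 and to 1791 of all 11867 genes. Every fitted peak lay in the dark, with a median of 18.1 h, and the median amplitude was 0.10 against 0.07 over all genes. These are peaks of fits that were not called. The genes moved together (first component 88.7% in NAc), so the 81 peaks are not separate observations of a rhythm. The smallest p belonged to Rpl7l1, with an amplitude of 0.12 ± 0.03 (1.18-fold, peak 17.4 h, adjusted p 0.0675, limma).

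Rpl7l1 values in NAc had medians of 9.66 at ZT2, 9.53 at ZT6, 9.77 at ZT10, 9.83 at ZT14, 9.80 at ZT18 and 9.75 at ZT22, within an overall range from 9.29 to 10.41. The differences between times were small beside the range at each time, such as 9.52 to 10.41 at ZT22. Rpl3 (amplitude 0.13 ± 0.05, adjusted p 0.229), Rps29 (0.16 ± 0.06, 0.265) and Rpl21 (0.12 ± 0.05, 0.317) came next in limma. With the share as covariate limma again called 0 (4.28% of all genes), with a median amplitude of 0.05. An unadjusted p of less than 0.05 then belonged to 7 of the 81 and to 2131 of all 11867 genes.

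In DLS 14 of 81 genes were called, where 21% of all genes were called. They included Rpl3, Rpl10a, Rpl13, Rpl36, Rpl37a, Rpl7a, Rps2, Rps7, Rps12, Rps19, Rps20 and Rps26, and the 14 had peaks from 11 to 13.2 h around lights off, 6 of them in the dark (10.9% of all genes). The median amplitude over the 81 genes was 0.09 (1.13-fold) against 0.07 over all genes.

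Rpl3 again had the smallest p. Its DLS values were 13.30 to 13.55 (median 13.46) at ZT2, 13.20 to 13.64 (median 13.47) at ZT6 and 13.404 to 13.67 (median 13.55) at ZT10. They were 13.42 to 13.81 (median 13.60) at ZT14, 13.401 to 13.80 (median 13.54) at ZT18 and 12.84 to 13.65 (median 13.46) at ZT22. ZT14 was highest and the widest range was at ZT22. Its amplitude was 0.12 ± 0.02 (1.17-fold, peak 13.2 h, adjusted p 0.00122, limma).

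Rpl10a ranged from 10.03 to 10.56 (median 10.45) at ZT2, from 10.41 to 10.69 (median 10.58) at ZT14 and from 9.83 to 10.63 (median 10.45) at ZT22, with an amplitude of 0.12 ± 0.03 (1.18-fold, peak 11 h, adjusted p 0.00317, limma). Rpl13 had an adjusted p of 0.00931 in limma (1.16-fold, peak 11.6 h). With the share as covariate 5 remained, among them Rpl3, Rpl10a, Rpl13 and Rps20 (21.2% of all genes called). Without the ZT22 females 2, 3 and 4, whose means of the 81 genes were 10.94 to 11.19 against 11.45 to 12.00 in the other 66 libraries apart from the ZT6 male 13, the count was 3 (22% of all genes called).

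Between regions, none of the 81 genes was shown to differ in rhythm in the fits without the share. Fitting both regions of a pair in limma, blocked by animal, called 0 of 81 for NAc and DMS (0.0% of 11283 genes), 0 for NAc and DLS (0.31%) and 0 for DMS and DLS (0.0%), with 77, 8 and 6 at an unadjusted p of less than 0.05, where 2569, 1100 and 1043 of the 11283 genes were. Rpl3 had the smallest p for NAc and DMS (adjusted p 0.0774, limma). With the share and its own slope in each region, 1 gene was called for NAc and DLS (0.753% of genes). It was Rps29, which binds zinc in the small subunit, with a fitted amplitude of 0.11 and a peak at 19.6 h in NAc and 0.07 at 11 h in DLS (adjusted p of the difference 0.0426, limma), though neither region alone called it (adjusted p 0.106 and 0.18).

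No difference between males and females was called by limma with time as 6 levels. The counts were 0 in NAc (0.0758% of all genes called), 0 in DMS (0.909%) and 0 in DLS (0.202%). An unadjusted p of less than 0.05 was reached by 1, 0 and 6 of the 81. A larger share of all genes reached it in each region, with 1301 of 12101 in DMS and 1166 of 11394 in DLS. Small p values in NAc belonged to Rpl7l1 (male minus female -0.09 ± 0.05, adjusted p 0.932) and Rps20 (0.14 ± 0.09, 0.966), in DMS to Rpl29 (-0.05 ± 0.03, 0.685) and Rpl6 (-0.05 ± 0.04, 0.793) and in DLS to Rpl3 (0.09 ± 0.04, 0.409), all in limma. DLS had 80 positive differences of 81, NAc 74 and DMS 28. With the share, DLS kept 76 positive differences, while NAc and DMS had 10 each. These genes moved together from library to library, so their signs are not separate observations. How many of all genes had a positive difference is not given here. Without the share, the median DLS difference was 0.06 against 0.00 over all genes. With libraries scaled to an equal sum, that median turned to -0.07 against -0.14.

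With the share, 1 gene passed in DMS (8.1% of all genes called). It was Rpl41, the smallest ribosomal protein, lower in males (-0.12 ± 0.03, adjusted p 0.0191, limma). With a term for animal numbers of 31 and higher in place of the share, 60 of 81 were higher in DMS males (16.5% of all genes called, median 0.16). The 7 high-share libraries among the lower numbers were all male, which moves with that count, and its part was not tested. The rhythm itself differed between the sexes in 0 of 81 genes in each region by limma (0.0% of all genes). At an unadjusted p of less than 0.05 there were 0 in NAc, 0 in DMS and 23 in DLS. Over all genes there were 475 of 11867, 459 of 12101 and 1284 of 11394.

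Other genes of the translation machinery were compared from lists chosen with earlier results of these data known. Fau, which encodes a small subunit protein fused to a ubiquitin-like protein, and Rack1, a scaffold on the small subunit, rose with the share in all 3 regions. Their slopes were 0.47 and 0.39 in NAc, 0.40 and 0.36 in DMS and 0.18 and 0.13 in DLS. In DMS both were rhythmic without the share (adjusted p 0.00582 for Fau and 0.0307 for Rack1, limma), and with it the adjusted p was 0.567 and 0.0996.

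Of 17 genes for elongation factors and other TOP mRNAs, 14 rose with the share in DMS and 1 fell, with a median slope of 0.19, where 78.7% of all genes were called and 39.4% rose. Elongation factor Eef1a1 (0.42) and Tpt1 (0.39) had slopes like those of the ribosomal proteins. In this list 14 were rhythmic in DMS without the share (51.3% of all genes) and 5 with it (28.6% of all genes, so a share near the background). The smallest p values with the share belonged to Nap1l1, a histone chaperone (amplitude 0.10, peak 1.75 h, adjusted p 2.58e-06), and Cct4, a subunit of a chaperonin (0.10, 20.7 h, adjusted p 2.7e-05), in limma. Of 18 measured genes of the mTOR pathway and TOP regulators, 5 rose with the share and 11 fell (median slope -0.14).

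In the mTOR list 11 of 18 were rhythmic in DMS without the share and 5 with it, near the 51.3 and 28.6% of all genes. Rheb, the activator of mTOR complex 1, had an amplitude of 0.18 and a peak at 21.6 h (adjusted p 3.2e-05), and Eif4ebp2, a translational repressor that mTOR inactivates, 0.15 and 18.3 h (adjusted p 0.00116), both in limma. Of 26 genes of ribosome biogenesis 8 rose with the share and 11 fell (median slope -0.02), against 78.7% of all genes called. Rhythms were called in 9 of the 26 without the share and 4 with it, below the 51.3 and 28.6% of all genes. Fbl, the methylase of ribosomal RNA, had an amplitude of 0.15 and a peak at 10.3 h with the share (adjusted p 0.000906), and Wdr12 0.08 and 20.9 h (adjusted p 0.0025), in limma.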

How the data were processed

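Total RNA of striatal punches was sequenced, and the authors deposited 1 table of log2 values per region, which were used as given. Per the submitters' processing notes, FastQC, Trimmomatic, HISAT2 2.1.0 and HTSeq 0.10.0 were used. The notes name a human build, which goes against the mouse labels and Ensembl identifiers. Whether counting used strand, and how reads shared with paralogs and pseudogenes were assigned, is not given in the sources used here. In DMS and DLS 100% of values were whole reads after undoing the log2 and a size factor (tolerance 0.01 reads). In NAc a median of 2.04% were, and 9 values lay below 0, so those values were adjusted further in a way not recorded. voom on the recovered reads called 79 members rhythmic in DMS (50.8% of all genes) and 17 in DLS (21.4% of all genes, a share near that of the members).

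The members and lists were chosen with earlier results of these data known. limma 3.58.1 (R 4.3.3) fitted all genes of a region with a cosine and sine of 24 h, a term for sex and a mean-variance trend, and p was adjusted by Benjamini-Hochberg over all genes. Share fits added the percentage of normalised counts in mt-Rnr1 and mt-Rnr2. The fits were tested on simulated data. Named were the 4 members of smallest rhythm p per region and in DMS with the share, the 3 highest and 3 lowest slopes in DMS (none was negative), the 2 smallest p by sex, the 3 highest and lowest per kb, a set of members named by role, and the 2 genes per list of smallest p. Replicate numbers were checked for pairing. Females and males of the same number had a median correlation of 0.22 in DMS, with a lowest of -0.58. Libraries of the same animal in DMS and DLS had a median of only 0.06. Such correlations therefore cannot decide whether the numbers pair females and males. Results of 3 genes that these rules or lists name are not reported here, though counts over the members include those that are members.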

Additional observations from a re-analysis of the deposited data

Results flagged for a closer look

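In 6 of 36 groups of 4 to 10 libraries of the same region, sex and time, 1 library stood apart from the rest in the mean log2 value of the 81 genes. Chance gives about 1 in 20 groups. In DMS the ZT22 female 49 had 12.28 where the nearest library had 11.49, the ZT2 male 31 had 12.33 (nearest 11.49) and the ZT22 male 47 had 12.47 (nearest 11.55). These 3 had mitochondrial rRNA shares of 40.8, 42.6 and 44.1%, where the others of their groups had 21.2 to 24.9, 22.3 to 25.3 and 19.8 to 25.3%. The ZT10 female 18 of DMS lay low at 11.65 (nearest 12.08), with a share of 25.4% against 35.3 to 39.7%. The ZT14 male 43 of NAc had 12.54 (nearest 12.19), with a share of 45.1% against 31.2 to 37.7%. The ZT10 female 37 of DLS had 11.63 (nearest 11.74), with a share of 40.2%, inside the range of its group.

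With the share in the fit, the rhythm of 1 gene, Rps29, differed between NAc and DLS (adjusted p 0.0426, limma), where 0.753% of all genes were called. Without the share that of 0 did (0.31% of all genes). There 8 had an unadjusted p of less than 0.05, as did 1100 of all 11283 genes.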

How the results depend on the processing

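Percentages in brackets are the share of all genes called in the same fit. In DMS the count of rhythmic genes, 79 (51.3%), was 46 with time as 6 levels (38.6%), 18 with a term for animal numbers of 31 and higher (31.2%), 9 with a term for high-share libraries (25.2%), 23 and 0 within low-share and high-share libraries (7.83 and 15%), and 50 and 0 among animals numbered up to 29 and from 31 (21.1 and 10.2%). With the share it was 9 (28.6%), against 30 and 24 with libraries scaled to an equal sum of all counts or of counts outside the 4 rRNA genes (30.9 and 30.1%), 25 with 6 time levels (35.7%), 15 with a share that includes rRNA-like genes (29%), and 2 and 14 within low-share and high-share libraries (2.59 and 20.5%). In DLS the count of 14 (21%) was 0 and 2 under those scalings (1.9 and 13%), and 1 and 8 there without the ZT6 male 13 (19.7 and 21%). It was 5 with 6 time levels (21.1%), 5 with the share in either form (21.2 and 24%), 3 without the ZT22 females 2, 3 and 4 (22%) and 4 without all 4 libraries (22.1%). The DLS slope count of 76 (42%) was 23 without those females (25.1%), the DMS slope count of 79 (78.7%) was 8 within low-share libraries (1.36%), the DMS sex count of 0 (0.909%) was 60 with the number term (16.5%) and 1 with the share (8.1%), and the NAc to DLS rhythm difference of 0 (0.31%) was 1 with the share (0.753%). The causes were not tested.

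Equal-sum scaling turned the slope to -0.10 for Rpl21, -0.21 for Rpl4 and -0.12 for Rpl6 in DMS and to -0.16 for Rpl4, -0.051 for Rpl6 and -0.24 for Rpl7l1 in NAc. Under that scaling only 10 of the 55 members called rhythmic in DMS peaked in the dark (76.9% of all genes called). Examples whose peak moved to the light were Rpl21 (amplitude 0.10), Rpl29 (0.13), Rpl4 (0.13) and Rpl6 (0.091). With the replicate number as a block, 67 genes were rhythmic in DMS (36%), 10 in DLS (17.9%), 0 in NAc (2.72%) and 9 in DMS with the share (28.5%). With that block 80, 79 and 75 rose with the share in NAc, DMS and DLS (63.3, 78.7 and 42.8% called). Leaving out 1 library gave 0 to 1 rhythmic genes in NAc, 76 to 79 in DMS, 5 (without the ZT14 male 21) to 19 (without the ZT22 male 1) in DMS with the share, and 6 (without the ZT22 female 2 or 4) to 31 (without the ZT10 male 16) in DLS. Over all genes, the NAc fits with 1 called 291 to 347 of 11867. The named DMS fits with the share called 3274 and 3744 of 12101. The named DLS fits called 2339, 2301 and 2577 of 11394. The fit of all DMS libraries called 51.3% of all genes. Slope counts were 79 to 80 in NAc, 79 to 79 in DMS and 64 (without the ZT22 female 4) to 78 (without the ZT6 male 13) in DLS. The fits of all libraries called 63.3, 78.7 and 42% of all genes for the slope. Sex counts were 0 to 0 in each region, as were counts of rhythms that differ by sex. The depth of NAc is unknown.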
